A study of Mus musculus with 9 samples.

Results

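Genes of mitosis and of the G2/M transition were followed across primary tumours grown from the mouse mammary carcinoma lines 4T1, 66cl4 and 67NR. They are 38 genes chosen by name as genes that dividing cells use to enter, carry out and leave mitosis. Each gene was read from its brightest probe set, counting only probe sets that name no other gene. Of the 38, 37 had such a probe set and all 37 passed the filter on low signals, out of 18193 genes measured and 13409 tested. The expression of cyclin B1 (Ccnb1) is not analysed here, while its promoter is among those searched below.

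The tumours came from female BALB/c mice of 7 to 9 weeks. Viable cells of 4T1/CMVLUC, 66cl4/CMVLUC or 67NR/CMVLUC, 1000000 per mouse, were placed into the right mammary gland number 4, and the tumours were taken out on day 15. The CMVLUC of all 3 names is written as the labels give it, so the groups share it. RNA came from the tumour area of sections cut out by laser capture, and each of 3 mice per line gave 1 single-colour Affymetrix array. All 3 lines descend from 1 spontaneous tumour of a BALB/c-derived mouse and are used as models of differing metastatic spread, with 67NR as the line that does not spread. The mice, not the genes, are the replicates, and p-values measure the spread between 3 tumours per line. In captured tissue, fewer dividing cells and less RNA per dividing cell cannot be told apart.

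Entry into mitosis is driven by cyclin-dependent kinase 1 bound to cyclins A and B, and Aurora and Polo kinases then build the spindle. The spindle assembly checkpoint holds the anaphase-promoting complex back until every kinetochore is attached, after which securin and the cyclins are destroyed and the cell divides. Many of these genes are transcribed late in the cell cycle through a short promoter element, the cell cycle homology region, often with CCAAT boxes upstream, so that their mRNA levels are commonly read as a measure of how many cells are dividing.

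Because the genes are known to be transcribed together, their promoters were searched for these elements in RefSeq windows of build GRCm38.p6 that run from 250 bases before to 50 bases after the annotated start. At least 1 window was given for 31 of the 38 genes. Bub3, Ect2 and Prc1 had 2 windows each, and a gene counted once if any of its windows held the letters. The shares of all windows below are counted per window instead. The letters TTTGAA, the canonical cell cycle homology region, were found on either strand for 22 of the 31 genes (71%). This compares with 17.9% of all 32851 windows and 14.4% of the 10754 tested genes with a window. CCAAT was found for 23 of 31 genes (74.2%), against 37.4% of all windows and 42.4% of tested genes. Both were found for 19 genes (61.3%), against 6.95% of all windows and 5.72% of tested genes. Matches of the 2 motifs can share at most 1 base. TATAAA, the TATA box searched as a comparison, was found for 1 gene (3.23%), against 13.6% of all windows and 9.55% of tested genes. Of the 12 genes that differed between at least 1 pair of lines, described below, 7 hold TTTGAA and 9 hold CCAAT. A match is a description of the letters and not a bound site. The windows of 5 of these genes are printed 5′ to 3′ in the direction of the gene, because their differences between lines, described below, run in different directions: Kif11 and Birc5 were higher and Cdk1 and Top2a lower in 66cl4 than in 67NR, and Ccnb2 was highest in 4T1. Capitals mark TTTGAA and CCAAT or their reverse complements TTCAAA and ATTGG. Kif11 lies at chr19:37376132-37376431 on the + strand, Birc5 at chr11:117848987-117849286 on the + strand, Cdk1 at chr10:69352863-69353162 on the - strand, Top2a at chr11:99024140-99024439 on the - strand and Ccnb2 at chr9:70421505-70421804 on the - strand.
Kif11: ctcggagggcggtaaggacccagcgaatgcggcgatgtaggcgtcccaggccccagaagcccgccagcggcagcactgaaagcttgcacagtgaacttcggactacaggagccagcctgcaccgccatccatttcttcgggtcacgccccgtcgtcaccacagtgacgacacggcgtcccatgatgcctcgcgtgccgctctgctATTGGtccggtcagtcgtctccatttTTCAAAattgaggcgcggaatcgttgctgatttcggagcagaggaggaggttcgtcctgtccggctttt
Birc5: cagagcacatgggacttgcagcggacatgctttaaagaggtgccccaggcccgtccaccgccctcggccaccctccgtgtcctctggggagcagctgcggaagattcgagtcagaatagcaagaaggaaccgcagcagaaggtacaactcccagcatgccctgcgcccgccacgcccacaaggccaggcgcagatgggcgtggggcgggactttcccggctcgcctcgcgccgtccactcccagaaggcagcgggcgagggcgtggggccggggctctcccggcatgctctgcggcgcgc
Cdk1: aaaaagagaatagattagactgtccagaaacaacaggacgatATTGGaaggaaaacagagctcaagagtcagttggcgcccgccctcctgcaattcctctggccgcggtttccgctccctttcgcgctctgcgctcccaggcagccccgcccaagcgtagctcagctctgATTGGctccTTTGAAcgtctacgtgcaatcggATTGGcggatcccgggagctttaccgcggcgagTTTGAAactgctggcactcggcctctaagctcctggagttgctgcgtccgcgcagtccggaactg
Top2a: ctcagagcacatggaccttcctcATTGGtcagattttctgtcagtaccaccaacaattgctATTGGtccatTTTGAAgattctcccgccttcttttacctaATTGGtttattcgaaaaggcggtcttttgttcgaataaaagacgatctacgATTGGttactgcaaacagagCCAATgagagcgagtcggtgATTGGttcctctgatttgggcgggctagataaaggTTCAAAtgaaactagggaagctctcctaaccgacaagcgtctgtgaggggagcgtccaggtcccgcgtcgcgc
Ccnb2: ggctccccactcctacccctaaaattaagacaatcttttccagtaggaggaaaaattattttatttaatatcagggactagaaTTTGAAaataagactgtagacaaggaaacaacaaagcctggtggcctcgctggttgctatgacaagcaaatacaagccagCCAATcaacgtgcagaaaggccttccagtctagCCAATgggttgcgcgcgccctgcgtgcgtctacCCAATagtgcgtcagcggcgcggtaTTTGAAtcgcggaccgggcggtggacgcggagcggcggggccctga
The Cdk1 window holds 2 matches of TTTGAA and 3 of CCAAT, and that of Ccnb2 also holds 2 and 3. The Top2a window holds 2 and 6. The Kif11 window holds 1 of each. That of Birc5 holds neither string of letters in these 300 bases.

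The deposited log2 signals of the 37 genes lay between 6.57 and 12.61 on the 9 arrays. All were above the highest signal of 27 control probe sets for bacterial transcripts, which was 4.83 to 5.08 per array and is taken as background. Array medians were 5.51 to 5.58 and 75th percentiles 7.58 to 7.74. Epithelial markers set 4T1 apart from the other lines. Cdh1, the epithelial cadherin, averaged 10.93 ± 0.17 in 4T1 tumours, 4.27 ± 0.24 in 66cl4 and 4.09 ± 0.24 in 67NR (log2 signal, SD, n = 3 each). Cdh1 was thus not above background in 66cl4 and 67NR. The summed signal of 10 epithelial markers was 14.87 to 15.15 in 4T1, 12.86 to 13.22 in 66cl4 and 8.63 to 8.89 in 67NR tumours (log2 of the sum). The sum in 66cl4 was nearly all Krt8, at 13.08, 13.17 and 12.78, the only epithelial marker called higher there than in 67NR. The corresponding sum of 7 mast cell markers was 8.22 to 8.91 in 4T1, 8.72 to 9.20 in 66cl4 and 14.02 to 14.53 in 67NR tumours, and that of 10 endothelial markers was 11.31 to 11.43, 10.58 to 10.86 and 12.41 to 12.97 in the same order. Compared with 67NR, 10 of 10 epithelial markers were higher in 4T1 and 1 of 10 in 66cl4, 7 of 7 mast cell markers were lower in both, and 8 of 10 endothelial markers were lower in 4T1 and 9 of 10 in 66cl4. Other cell types differed too. In the order 4T1, 66cl4 and 67NR, fibroblast sums were 14.14 to 15.36, 13.02 to 13.84 and 12.16 to 12.58. Macrophage and monocyte sums were 14.43 to 14.66, 15.67 to 16.01 and 15.51 to 15.68. Pericyte sums were 10.30 to 11.10, 11.08 to 11.74 and 12.99 to 13.15, and adipocyte sums 7.97 to 9.38, 9.11 to 10.36 and 12.19 to 12.44. The part of the tumours' cell makeup in the differences below was not tested.

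Taken as 1 median per tumour, the levels of the mitosis genes overlapped between all 3 lines. The median over the 37 genes was 8.70, 9.11 and 9.22 in the 4T1 tumours, 8.73, 8.82 and 8.77 in the 66cl4 tumours and 8.36, 8.80 and 9.02 in the 67NR tumours (log2 signal). The values of 4T1 and 67NR overlap, and those of 66cl4 lie within the range of 67NR. Line means were 9.01 ± 0.27 in 4T1, 8.77 ± 0.04 in 66cl4 and 8.73 ± 0.34 in 67NR (SD, n = 3 each). The median of the gene-by-gene differences was 0.19 for 4T1 minus 67NR, 0.04 for 66cl4 minus 67NR and 0.17 for 4T1 minus 66cl4, where all tested genes had medians of -0.03, 0.01 and -0.03 (log2). Without 67NR replicate 1 the median of 66cl4 minus 67NR was -0.12, and without 67NR replicate 3 it was 0.16. That median was also below 0 with quantile normalization (-0.02) and with centring on the 75th percentile (-0.02). Mki67, which encodes the Ki-67 antigen used by pathologists to count cycling cells, had signals of 10.17, 10.48 and 10.80 in 4T1, 10.61, 10.68 and 10.73 in 66cl4 and 10.29, 10.60 and 10.61 in 67NR tumours. The ranges of the lines overlap, and no pair differed past the threshold. The difference of Mki67 was -0.02 ± 0.16 for 4T1 minus 67NR (SE, 95% interval -0.38 to 0.34, limma adjusted p = 0.937) and 0.17 ± 0.16 for 66cl4 minus 67NR (-0.19 to 0.53, adjusted p = 0.446).

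**Figure D1:**
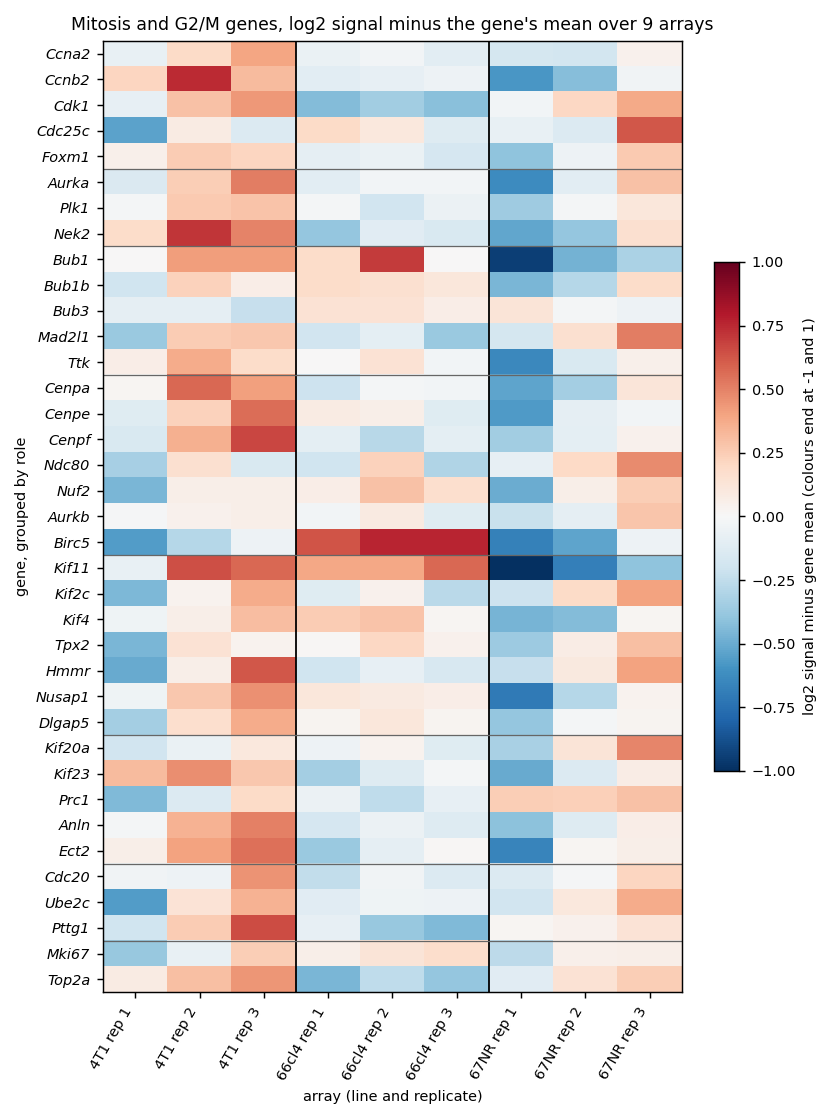
Log2 signal of each of the 37 mitosis and G2/M genes (down the page, grouped by role) minus its mean over the 9 arrays, for each array (across, 3 mice per line, 4T1, 66cl4 and 67NR). Red is above and blue below the gene's mean, and colours end at -1 and 1; 67NR replicate 1 and 4T1 replicate 1 are mostly blue, while Kif11 and Bub1 are blue in all 3 67NR tumours and Birc5 is red in the 66cl4 tumours alone.

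Single genes were compared with limma's moderated test over all 13409 tested genes at a Benjamini-Hochberg adjusted p under 0.05. Between 4T1 and 67NR tumours, 7 of 37 mitosis genes differed (18.9%), against 39.9% of all tested genes. All 7 were higher in 4T1, against 19.4% of all genes called higher, and none was lower, against 20.5%. The 7 are Kif11, Bub1, Ccnb2, Nek2, Cenpa, Kif23 and Nusap1, and 1 of them, Kif11, exceeded 2-fold. The 30 genes not called had differences of -0.39 to 0.53. At an unadjusted p under 0.05 there were 13 mitosis genes, and the share of all genes at that p is not given here. The count was 3 without 67NR replicate 1, 4 without 67NR replicate 2, 3 without 4T1 replicate 2 and 12 without 4T1 replicate 1. Of all tested genes 4616, 4429, 4700 and 5018 were called in the same order, in place of 5347. All 67NR arrays carry a higher scan file number in the labels than any other array. With this number in the model 2 mitosis genes (5.41%) and 19.8% of all genes were called. The 2 were Ccnb2 and Kif23, both among the 7.

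Between 66cl4 and 67NR tumours, 6 of 37 genes differed (16.2%), against 36.1% of all genes. Kif11, Birc5, Bub1 and Kif4 were higher in 66cl4, and Cdk1 and Top2a were lower. Genes called higher made up 20% and genes called lower 16% of all tested genes. The comparison shares its 67NR tumours with that of 4T1, and Kif11 and Bub1 were called in both. The count was 4 without 67NR replicate 2 and 4 without 66cl4 replicate 1, and the matching counts of all genes are not given here. With the scan file number in the model 4 mitosis genes (10.8%) and 28.2% of all genes were called. Of these 4, Kif11 and Birc5 were among the 6.

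Between 4T1 and 66cl4 tumours, 7 of 37 genes differed (18.9%), against 41.3% of all genes. Nek2, Top2a, Cdk1, Pttg1, Kif23 and Ccnb2 were higher in 4T1, and Birc5 was lower, where 17.9% of all genes were called higher and 23.4% lower. The count was 4 without 66cl4 replicate 1 or without 66cl4 replicate 2, 3 without 4T1 replicate 2 and 11 without 4T1 replicate 1. Of all tested genes 4737, 4649, 4790 and 5329 were called in the same order, in place of 5538. Over the 3 lines together, limma's moderated F-test called 9 of 37 genes (24.3%), against 56.6% of all tested genes. The F-test called 14 without 67NR replicate 3 and 17 without 4T1 replicate 1. Of all tested genes it called 6966 and 7458 there, in place of 7590. In this model the share of mitosis genes called was below the share of all genes in each of the 3 comparisons and in the F-test. A call depends on the spread between mice as well as on the difference. The median SD of the mitosis genes was 0.27 in 4T1, 0.10 in 66cl4 and 0.30 in 67NR, against 0.18, 0.13 and 0.13 of all tested genes. The part of this spread in the shares was not tested. With the signal of spiked hybridization controls as a covariate the share of mitosis genes called was above that of all genes between 4T1 and 67NR. There 8 mitosis genes (21.6%) and 16% of all genes were called. Altogether 12 mitosis genes differed in at least 1 comparison and 25 in none, and the share of all genes called in at least 1 is not given here.

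**Figure D2:**
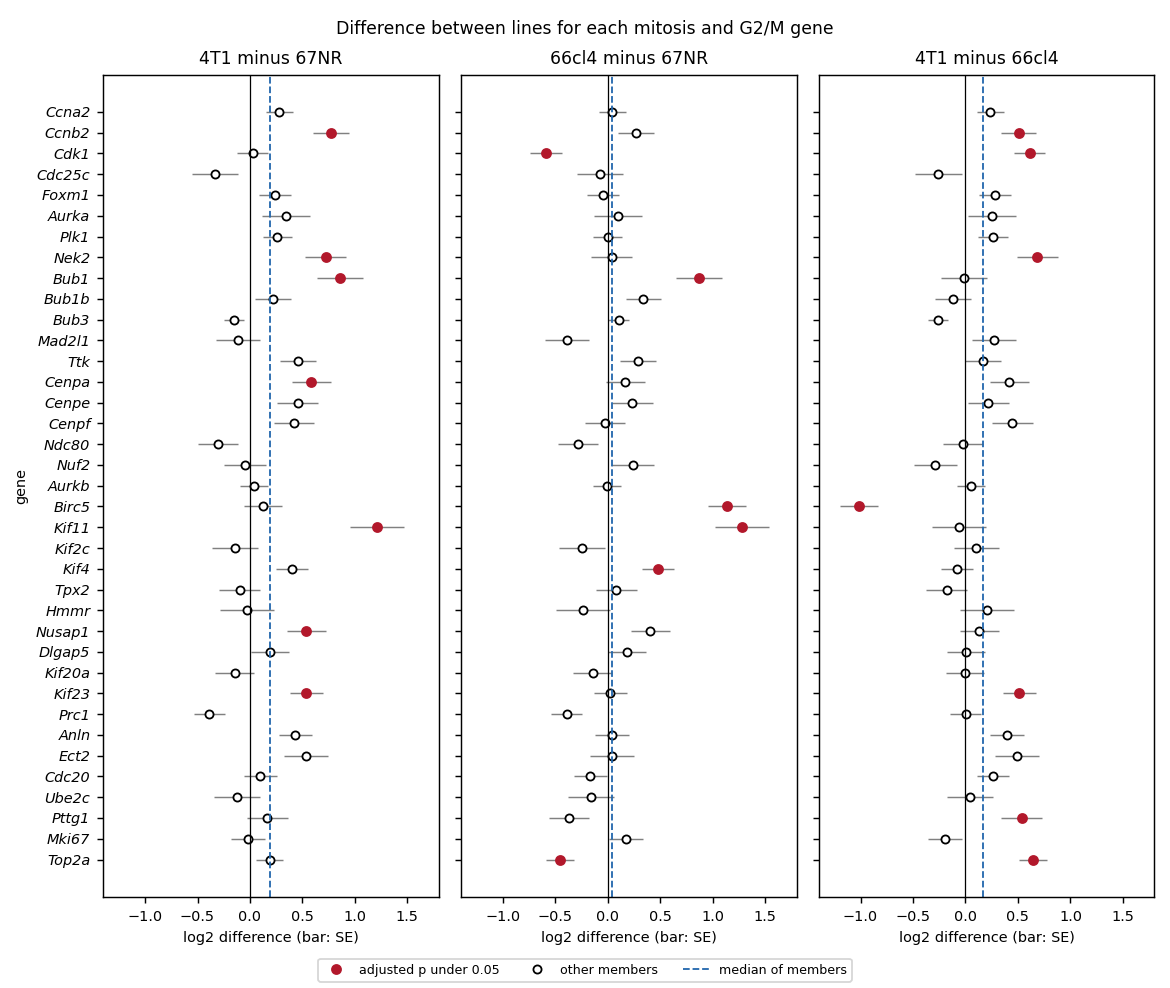
Difference in log2 signal (across, bar for the standard error of the limma fit, 3 mice per line) of each mitosis and G2/M gene (down the page) for 4T1 minus 67NR, 66cl4 minus 67NR and 4T1 minus 66cl4. Filled points have an adjusted p under 0.05, 7, 6 and 7 genes, and the dashed line is the median of the 37 genes at 0.19, 0.04 and 0.17.

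Of the 5 genes of mitotic entry measured, Cdk1 and Ccnb2 were called. Cdk1, the kinase that drives entry, had signals of 10.59, 10.96 and 11.10 in 4T1, 10.24, 10.32 and 10.25 in 66cl4 and 10.64, 10.88 and 11.05 in 67NR tumours. All 66cl4 values lay below all others, while 4T1 and 67NR overlapped over their whole range. Cdk1 was lower in 66cl4 than in 67NR by a log2 difference of -0.59 ± 0.15 (SE, limma adjusted p = 0.0127) and higher in 4T1 than in 66cl4 by 0.61 ± 0.15 (adjusted p = 0.00898). The call against 67NR ended without 67NR replicate 3 (-0.49, adjusted p = 0.0501), with the scan file number (-0.64, 0.0538) and with the hybridization controls (-0.45, 0.0671) as a covariate. Ccnb2, which encodes cyclin B2, a partner of Cdk1, had 9.78, 10.31 and 9.88 in 4T1, 9.46, 9.48 and 9.51 in 66cl4 and 8.98, 9.14 and 9.53 in 67NR tumours. The 4T1 values lay above those of both other lines, which overlapped each other through the highest 67NR tumour. Its difference was 0.77 ± 0.17 for 4T1 minus 67NR (adjusted p = 0.00515) and 0.51 ± 0.17 for 4T1 minus 66cl4 (adjusted p = 0.0377). The call against 66cl4 ended without 67NR replicate 2, any of the 66cl4 tumours, 4T1 replicate 2 or 4T1 replicate 3, with differences of 0.35 to 0.56. Foxm1, a transcription factor of G2/M genes, had 7.99, 8.19 and 8.15 in 4T1, 7.85, 7.87 and 7.77 in 66cl4 and 7.54, 7.89 and 8.20 in 67NR tumours and was not called in any comparison (0.24 ± 0.15 for 4T1 minus 67NR, interval -0.11 to 0.58). A probe set of Foxm1 of nearly the same brightness was called for 4T1 minus 66cl4 (0.42, adjusted p = 0.034). Ccna2, encoding cyclin A2, and Cdc25c, a phosphatase that activates Cdk1, were not called either, but a dimmer probe set of Ccna2 was called for 4T1 minus 67NR (0.48, adjusted p = 0.0452).

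Of the 3 mitotic kinases of centrosome and spindle, Nek2 alone was called. Nek2, a kinase that parts the centrosomes, had 8.69, 9.22 and 9.00 in 4T1, 8.12, 8.39 and 8.35 in 66cl4 and 7.98, 8.12 and 8.66 in 67NR tumours. Every 4T1 value lay above every value of the other lines, narrowly so over the highest 67NR tumour. It was higher in 4T1 than in 67NR by 0.72 ± 0.19 (adjusted p = 0.0138) and than in 66cl4 by 0.68 ± 0.19 (adjusted p = 0.0176). The call against 67NR ended without 67NR replicate 1, 67NR replicate 2 or 4T1 replicate 2 (0.58, 0.65 and 0.60) and with the scan file number in the model (1.02, adjusted p = 0.0624), that against 66cl4 without 66cl4 replicate 1 or 4T1 replicate 2 (0.60 and 0.56), and both with the mean of its probe sets (0.18 and 0.30). Plk1, the Polo-like kinase, had 8.70, 8.98 and 9.00 in 4T1, 8.70, 8.53 and 8.66 in 66cl4 and 8.36, 8.70 and 8.83 in 67NR tumours, and its difference between 4T1 and 67NR was 0.26 (interval -0.05 to 0.58). Aurka, Aurora kinase A, had 8.34, 8.73 and 9.00 in 4T1, 8.38, 8.46 and 8.46 in 66cl4 and 7.86, 8.38 and 8.78 in 67NR tumours, with a difference of 0.35 between 4T1 and 67NR (interval -0.16 to 0.85). Neither passed the test, and in both genes the lines overlapped.

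Of 5 spindle checkpoint genes, Bub1 was called. Bub1, a checkpoint kinase at the kinetochore, had 8.55, 8.97 and 8.97 in 4T1, 8.73, 9.25 and 8.55 in 66cl4 and 7.61, 8.08 and 8.23 in 67NR tumours. All 67NR values lay below those of the other lines, which covered nearly the same range. Its difference was 0.86 ± 0.22 for 4T1 minus 67NR (adjusted p = 0.0107) and 0.87 ± 0.22 for 66cl4 minus 67NR (adjusted p = 0.0115). With the scan file number in the model neither passed (0.88 and 0.89, adjusted p = 0.151 and 0.0651), and with the hybridization controls that of 4T1 did not (1.21, 0.056). A second probe set of Bub1 gave 0.51 and 0.41, of which only that of 4T1 was called. Bub3, the partner that carries Bub1 to kinetochores, had 10.99, 10.99 and 10.85 in 4T1, 11.23, 11.23 and 11.15 in 66cl4 and 11.21, 11.06 and 11.03 in 67NR tumours. Its brightest probe set was not called (-0.16 for 4T1 minus 67NR, -0.26 for 4T1 minus 66cl4, adjusted p = 0.0551). For 4T1 minus 66cl4 it was called with the stricter filter on low signals (adjusted p = 0.0454), quantile normalization (0.0445) and a trended, robust prior (0.0322). A dimmer probe set went the other way and was called (0.44, adjusted p = 0.0264, and 0.68, adjusted p = 0.00309), so the direction of Bub3 depends on the probe set. Bub1b, Mad2l1 and Ttk, which encode further checkpoint proteins, were not called. Some alternatives called Ttk for 4T1 minus 67NR, among them the mean of its probe sets (0.33, adjusted p = 0.0427) and a replicate block (0.46, 0.0438). Bub1b was called for 66cl4 minus 67NR without 67NR replicate 3 (0.53, 0.0231) and with the hybridization controls (0.54, 0.0328).

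Of the 37 genes, Birc5 had the largest difference between 4T1 and 66cl4 tumours. It encodes survivin, a subunit of the chromosomal passenger complex that is also known as an inhibitor of apoptosis. Its signals were 9.74, 10.01 and 10.25 in 4T1, 10.93, 11.06 and 11.06 in 66cl4 and 9.62, 9.77 and 10.25 in 67NR tumours. The 66cl4 tumours stood above all others, and 4T1 and 67NR overlapped. Birc5 was higher in 66cl4 than in 67NR by 1.14 ± 0.18, a fold of 2.20 (limma adjusted p = 0.000928), and lower in 4T1 than in 66cl4, with a difference of -1.01 ± 0.18 (adjusted p = 0.00149). Both calls held under every alternative and with any tumour left out. Birc5 has only 1 probe set, so the alternatives that changed the probe set used the same signals and could not test these calls. Aurkb, the kinase of the same complex, had differences of 0.04, -0.01 and 0.05 in the 3 comparisons and was not called. Of the centromere and kinetochore genes, Cenpa, the histone variant that marks centromeres, was higher in 4T1 than in 67NR by 0.58 ± 0.19 (adjusted p = 0.0314), with overlapping values. That call ended without 67NR replicate 1, 67NR replicate 2, 4T1 replicate 2 or 4T1 replicate 3 (0.44 to 0.55). It also ended with the mean of its probe sets (0.37) and with its most variable probe set (0.41, adjusted p = 0.198). The scan file number in the model (0.80, 0.121) and a fit of only the 2 lines compared (0.0596) ended it too. Cenpe, Cenpf, Ndc80 and Nuf2, which link kinetochores to microtubules, were not called. Without 4T1 replicate 1, Cenpe (0.63, adjusted p = 0.0243) and Cenpf (0.64, 0.00932) were called for 4T1 minus 67NR.

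Of the 37 genes, Kif11 had the largest difference from 67NR tumours in both other lines. It encodes the kinesin Eg5, the motor that pushes spindle poles apart. Its signals were 7.92, 8.64 and 8.57 in 4T1, 8.38, 8.38 and 8.57 in 66cl4 and 6.59, 7.31 and 7.59 in 67NR tumours. All 67NR values lay below all others, and 4T1 and 66cl4 overlapped. The difference was 1.21 ± 0.26 for 4T1 minus 67NR, a fold of 2.32 (adjusted p = 0.00425), and 1.28 ± 0.26 for 66cl4 minus 67NR, a fold of 2.42 (adjusted p = 0.00381). The other 2 probe sets of Kif11 had the same sign, 0.52 and 1.40 in 4T1 and 0.99 and 1.24 in 66cl4. The call of 4T1 ended with the scan file number in the model (1.35, adjusted p = 0.0774). Of the other spindle genes, Nusap1, a microtubule-binding protein, was higher in 4T1 than in 67NR by 0.54 ± 0.19 (adjusted p = 0.0436), and Kif4, a chromosome-bound kinesin, was higher in 66cl4 than in 67NR by 0.48 ± 0.15 (adjusted p = 0.0363), both with overlapping values. The call of Nusap1 ended on leaving out any tumour but 67NR replicate 3 or 4T1 replicate 1, and that of Kif4 without 67NR replicate 1, 67NR replicate 2, 66cl4 replicate 1 or 66cl4 replicate 2. Both also ended with quantile normalization, centring on the 75th percentile or the scan file number in the model. The call of Nusap1 ended too with no filter on low signals or only the 2 lines compared, and that of Kif4 with the hybridization controls or a replicate block. Kif2c, Tpx2, Hmmr and Dlgap5 were not called, with differences of -0.25 to 0.21, while a dimmer probe set of Dlgap5 was called for 4T1 minus 67NR (0.64, adjusted p = 0.00879).

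Of 5 genes of the central spindle and cytokinesis, Kif23, a kinesin of the centralspindlin complex, was called. It had 9.26, 9.41 and 9.22 in 4T1, 8.61, 8.82 and 8.93 in 66cl4 and 8.44, 8.81 and 9.02 in 67NR tumours. The 4T1 values lay above all others, and 66cl4 and 67NR overlapped. Its difference was 0.54 ± 0.15 for 4T1 minus 67NR (adjusted p = 0.0198) and 0.51 ± 0.15 for 4T1 minus 66cl4 (adjusted p = 0.0243). The call against 67NR ended without 67NR replicate 1 or 4T1 replicate 2 (0.38 and 0.48), and that against 66cl4 without 66cl4 replicate 1, 66cl4 replicate 2 or 4T1 replicate 2 (0.42, 0.53 and 0.45). A second probe set gave 0.39 in both and was not called. Prc1, which bundles the central spindle's microtubules, had the lowest difference of the 37 genes between 4T1 and 67NR, with 9.34, 9.64 and 9.97 in 4T1, 9.72, 9.53 and 9.70 in 66cl4 and 10.03, 10.02 and 10.07 in 67NR tumours. Its 67NR values lay above all others, but the differences of -0.39 ± 0.15 in both lines missed the threshold (adjusted p = 0.0604 and 0.064). Lower Prc1 in 4T1 was called with the mean of its probe sets (-0.45, adjusted p = 0.0473). A trended, robust prior (0.0497) or leaving out 4T1 replicate 3 (0.00699) gave that call too. In 66cl4 it was called with that mean (-0.51, 0.0317), its most variable probe set (0.0382) or the scan file number (0.0482). Leaving out 4T1 replicate 1 (0.0236) or 4T1 replicate 3 (0.0196), or fitting only the 2 lines compared (0.0128), gave it too. Its second probe set gave -0.51 in 4T1 and -0.63 in 66cl4, of which that in 66cl4 was called (adjusted p = 0.0398). Anln, Ect2 and Kif20a were not called, although the 4T1 values of Anln and Ect2 lay above all those of 66cl4, and a dimmer probe set of Anln was called there (0.85, adjusted p = 0.00944). Some alternatives called both. With a replicate block, Ect2 was called for 4T1 minus 67NR (0.53, adjusted p = 0.00906) and 4T1 minus 66cl4 (0.49, 0.0131). Anln was called there too (0.43, 0.0269, and 0.39, 0.0384).

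Of the genes of anaphase, Pttg1, which encodes securin, the guard of the enzyme that cuts sister chromatids apart, was higher in 4T1 than in 66cl4 by 0.54 ± 0.19 (adjusted p = 0.0492), with overlapping values. That call ended on leaving out any tumour but 66cl4 replicate 1 or 4T1 replicate 1, and with quantile normalization or centring on the 75th percentile. It also ended with its most variable probe set (0.45), no filter on low signals, a replicate block or only the 2 lines compared. The scan file number (0.35, adjusted p = 0.158) and the hybridization controls (0.52, 0.167) as a covariate ended it too. A dimmer probe set of Pttg1 was called lower in 66cl4 than in 67NR (-0.69, adjusted p = 0.017). Cdc20, the activator of the anaphase-promoting complex, had 10.97, 10.96 and 11.46 in 4T1, 10.76, 10.97 and 10.87 in 66cl4 and 10.87, 11.00 and 11.22 in 67NR tumours. These ranges overlap, and no comparison called it (0.10 ± 0.16 for 4T1 minus 67NR, interval -0.25 to 0.45). A dimmer probe set of Cdc20 was called for 4T1 minus 66cl4 (0.47, adjusted p = 0.0385). Ube2c, which supplies ubiquitin to that complex, was not called. Top2a, the topoisomerase that untangles chromosomes before anaphase, had 10.80, 11.02 and 11.16 in 4T1, 10.26, 10.46 and 10.33 in 66cl4 and 10.60, 10.86 and 10.96 in 67NR tumours. The 66cl4 values lay below all others, as for Cdk1. Top2a was lower in 66cl4 than in 67NR, with a difference of -0.45 ± 0.13 (adjusted p = 0.0234), and higher in 4T1 than in 66cl4 by 0.64 ± 0.13 (adjusted p = 0.00366). The call against 67NR ended without 67NR replicate 2, 67NR replicate 3, 66cl4 replicate 1 or 66cl4 replicate 3 (-0.45 to -0.38), with the mean of its probe sets (-0.24) and with the scan file number (-0.45) or the hybridization controls (-0.34) as a covariate. That against 66cl4 held in all of these, and its second probe set gave 0.55 and was also called. For 4T1 minus 67NR that second probe set was called too (0.42, adjusted p = 0.04), where the brightest was not.

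**Figure D3:**
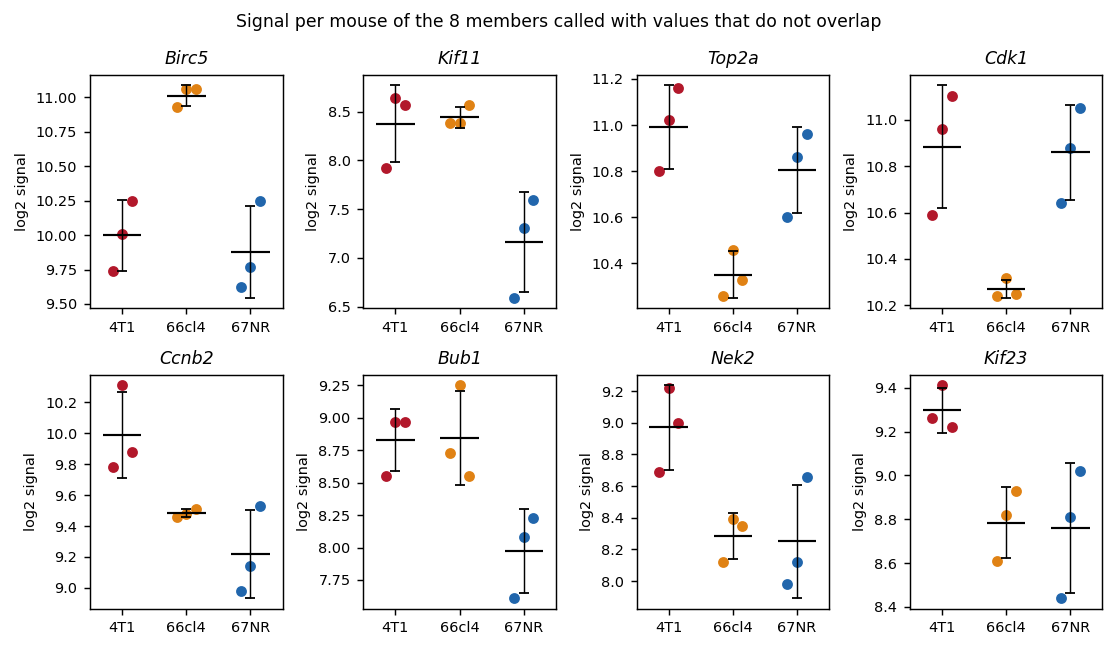
Log2 signal per mouse (points), mean (horizontal line) and SD (bar, n = 3) in 4T1, 66cl4 and 67NR tumours for the 8 genes that were called in at least 1 comparison with values of the lines that do not overlap; each panel has its own scale, which does not start at 0. Birc5 is high and Cdk1 and Top2a are low in 66cl4, Kif11 and Bub1 are low in 67NR, and Ccnb2, Nek2 and Kif23 are high in 4T1.

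The values of the lines did not overlap for 9 of 37 genes (24.3%) between 4T1 and 67NR, for 8 (21.6%) between 66cl4 and 67NR and for 12 (32.4%) between 4T1 and 66cl4, against 49.7%, 52.5% and 50.9% of all tested genes. Of these, 7 lay higher and 2 lower in 4T1 than in 67NR (23.4% and 26.3% of all genes), 4 higher and 4 lower in 66cl4 than in 67NR (28.8% and 23.7%), and 9 higher and 3 lower in 4T1 than in 66cl4 (21.7% and 29.2%). The spread between mice of 1 line differed by line. The median SD of the mitosis genes was 0.27 in 4T1 tumours, 0.10 in 66cl4 and 0.30 in 67NR, where all tested genes had 0.18, 0.13 and 0.13 (log2). For 31 of 37 genes the SD was smallest in 66cl4.

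Within a line the mitosis genes moved together from mouse to mouse. Of the 67NR tumours, replicate 3 had the highest signal for 36 of 37 genes and replicate 1 the lowest for 33, where replicate 3 was highest for 38.8% and replicate 1 lowest for 36.4% of all tested genes. The median deviation from the line's mean was -0.27, 0.02 and 0.28 in the 67NR replicates 1, 2 and 3. Of the 4T1 tumours, replicate 1 had the lowest signal for 34 of 37 genes, against 30.4% of all genes, and replicate 3 the highest for 25, against 30.9%. The deviations in 4T1 were -0.28, 0.07 and 0.20. In 66cl4 they were -0.03, 0.05 and -0.02, and replicate 2 was highest for 22 genes. The difference between the lowest and highest mouse of 4T1 or of 67NR thus exceeded the median difference between any pair of lines.

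**Figure D4:**
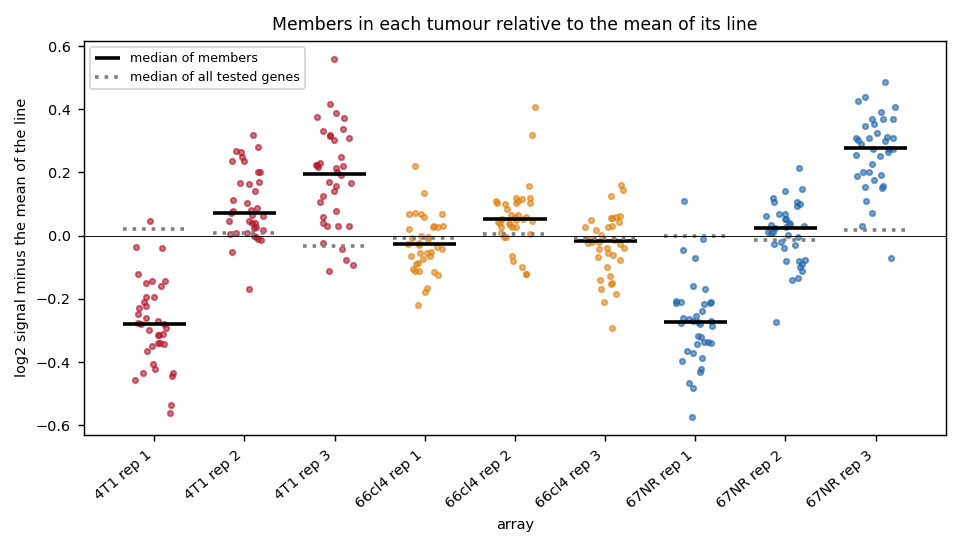
Log2 signal of each mitosis and G2/M gene (points) minus its mean over the 3 mice of the line, for each array. The solid bar is the median of the 37 genes and the dotted bar that of all tested genes; in 67NR the solid bars lie at -0.27, 0.02 and 0.28 and in 4T1 at -0.28, 0.07 and 0.20, while in 66cl4 they lie at -0.03, 0.05 and -0.02.

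Deviations of 2 mitosis genes from their line means over the 9 arrays had a median correlation of 0.776 over 666 pairs, and 85.3% of pairs were above 0.5. Over any 2 tested genes the median was 0.009 and 15.3% of pairs were above 0.5. The points share arrays and the deviations sum to 0 in each line, so these are descriptions with no test. Of the 37 genes, 36 had a correlation above 0.5 with the median of the others, the lowest of them Prc1 with 0.60, and Bub3 had -0.77. Spiked hybridization controls had a mean log2 signal of 10.30, 10.72 and 10.37 on the 4T1 arrays, 10.64, 10.84 and 11.10 on the 66cl4 arrays and 10.87, 11.16 and 11.47 on the 67NR arrays. The control signal was lowest on replicate 1 in each line, as was the median of the mitosis genes. It ordered all the 67NR arrays as that median did. It placed 4T1 replicate 2 and 66cl4 replicate 3 highest, where the median of the mitosis genes placed 4T1 replicate 3 and 66cl4 replicate 2 highest. 67NR replicate 1 also had the highest summed T and NK cell markers of its line, 11.07 against 10.41 and 10.39, and the highest endothelial sum, 12.97 against 12.41 and 12.53. 4T1 replicate 1 had the lowest fibroblast sum of its line, 14.14 against 15.36 and 14.73, and the highest epithelial sum, 15.15 against 14.87 and 14.98. Unlike 67NR replicate 1, it had the lowest T and NK cell sum of its line, 9.80 against 10.54 and 10.17. Its endothelial sum, 11.31 against 11.43 and 11.35, was the lowest as well. So was its pericyte sum, 10.30 against 11.09 and 11.10. The part of these measures in the spread between mice was not tested.

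Further mitosis and G2/M genes outside the 38, 78 of them tested, followed the same order within 67NR: replicate 1 was lowest for 72 and replicate 3 highest for 63. Between lines, 19 were higher and 6 lower in 4T1 than in 67NR (median 0.24), 18 higher and 2 lower in 66cl4 than in 67NR (median 0.27), and 7 higher and 10 lower in 4T1 than in 66cl4 (median -0.04). Their shares were 24.4% higher and 7.69% lower in 4T1 than in 67NR, against 19.4% and 20.5% of all tested genes. For 66cl4 and 67NR they were 23.1% and 2.56%, against 20% and 16%, and for 4T1 and 66cl4 8.97% and 12.8%, against 17.9% and 23.4%. Cep55, a scaffold of the last step of cytokinesis, was higher than in 67NR by 1.08 in 4T1 (adjusted p = 0.0035) and by 1.44 in 66cl4 (adjusted p = 0.000786). Psrc1, which binds spindle microtubules, was lower in 4T1 than in 67NR, with a difference of -2.18 (adjusted p = 8.27e-05), and than in 66cl4, with -1.78 (adjusted p = 0.000291). Sgo2a and Cenpn were among the highest in 4T1 against 67NR (0.94 and 0.83), and Mis12 and Cenpm among the lowest (-0.91 and -0.77). Ska3 (1.25) and Pbk (1.13) were higher and Zwint (-0.49) and Mis12 (-0.38) lower in 66cl4 than in 67NR. Zwilch (0.88), Shcbp1 (0.87) and Cdc25a (0.57) were higher and Spc25 (-0.65) and Iqgap3 (-0.58) lower in 4T1 than in 66cl4.

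Of 43 tested genes of DNA replication and the G1/S transition, 10 were higher and 1 lower in 4T1 than in 67NR, 10 higher and 2 lower in 66cl4 than in 67NR, and 4 higher and 5 lower in 4T1 than in 66cl4, with medians of 0.22, 0.14 and 0.08. The shares were 23.3% higher and 2.33% lower (19.4% and 20.5% of all genes), 23.3% and 4.65% (20% and 16%), and 9.3% and 11.6% (17.9% and 23.4%). Tk1, the thymidine kinase of S phase, had 9.50, 9.48 and 9.77 in 4T1, 10.70, 10.92 and 10.85 in 66cl4 and 8.58, 8.89 and 9.56 in 67NR tumours. Like Birc5 it stood highest in all 3 66cl4 tumours, with a difference of 1.81 ± 0.22 from 67NR (adjusted p = 0.000191) and of -1.24 ± 0.22 for 4T1 minus 66cl4 (adjusted p = 0.00141). Rfc3, Rfc5 and Orc6, of the clamp loader and the origin recognition complex, were higher in 4T1 than in 67NR by 1.16, 1.00 and 0.93, and Prim1, a primase subunit, was lower (-0.53). Within lines, 67NR replicate 3 was highest for 40 of the 43 genes, as for the mitosis genes, and 66cl4 replicate 2 was highest for 41. 4T1 replicate 1 was lowest for 13 of 43, where it was lowest for 34 of 37 mitosis genes.

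Of 20 inhibitors of Cdk1 and of the cell cycle, 6 were higher and 4 lower in 4T1 than in 67NR, 3 higher and 2 lower in 66cl4 than in 67NR, and 4 higher and 2 lower in 4T1 than in 66cl4. These are 30% and 20% (19.4% and 20.5% of all genes), 15% and 10% (20% and 16%), and 20% and 10% (17.9% and 23.4%). Cdkn2a, the locus of the p16 and p19Arf tumour suppressors, had 3.69, 3.79 and 4.02 in 4T1, 3.81, 4.09 and 3.87 in 66cl4 and 6.29, 6.90 and 6.68 in 67NR tumours. It was above background in 67NR alone, which makes it at least 3.14-fold lower in 4T1 (adjusted p = 1.6e-06) and at least 3.28-fold lower in 66cl4 (adjusted p = 3.57e-06), measured against the highest background control of each array. Cdkn1a, which encodes the p21 inhibitor, had 8.75, 9.30 and 9.72 in 4T1, 10.44, 10.79 and 9.80 in 66cl4 and 10.46, 10.80 and 10.76 in 67NR tumours. The 4T1 values lay below all others, with differences of -1.42 from 67NR (adjusted p = 0.00291) and -1.09 from 66cl4 (adjusted p = 0.0118). Cdkn2c, another inhibitor of the G1 kinases, was higher than in 67NR by 1.07 in 4T1 and by 1.16 in 66cl4. Rb1, the retinoblastoma protein that restrains S phase genes, was lower in 4T1 than in 66cl4 (-1.19, adjusted p = 6.62e-05) and than in 67NR (-0.81, adjusted p = 0.00074). It was higher in 66cl4 than in 67NR (0.38, adjusted p = 0.0386). Btg2, an antiproliferative gene, was lower in 4T1 than in 67NR (-1.16).

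Of 14 subunits and partners of the anaphase-promoting complex, 4 were higher and 3 lower in 4T1 than in 67NR, 6 higher and 2 lower in 66cl4 than in 67NR, and 2 higher and 3 lower in 4T1 than in 66cl4. These are 28.6% and 21.4% (19.4% and 20.5% of all genes), 42.9% and 14.3% (20% and 16%), and 14.3% and 21.4% (17.9% and 23.4%). Cdc16, a subunit, was higher than in 67NR by 0.95 in 4T1 and by 0.85 in 66cl4. Cdc27, the subunit that meets the activators, was lower in 66cl4 than in 67NR (-0.99, adjusted p = 0.00032) and higher in 4T1 than in 66cl4 (0.85, adjusted p = 0.000644). The F-test called 11 of these 14 genes, against 56.6% of all tested genes.

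The tested genes outside the 38 whose pattern was most like that of the mitosis genes were Ehd1, Kif18b, Reln, Wnt4 and Spag5, with correlations of 0.962, 0.951, 0.946, 0.944 and 0.936 with the median of the 37 genes over the 9 arrays. Kif18b, a kinesin that shortens spindle microtubules, and Spag5, a spindle protein, are themselves mitosis genes. Ehd1, which encodes a protein of endosome recycling, had 9.76, 10.55 and 10.49 in 4T1, 9.69, 9.90 and 9.79 in 66cl4 and 9.43, 9.94 and 10.22 in 67NR tumours. Reln ran from 4.16 to 5.27 over all arrays, at or near background.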

How the data were processed

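Gene expression of 9 captured tumour samples, 3 mice per line, was read from the value table the authors deposited, which holds log2 signals of 45101 probe sets. The deposited values, 2.42 to 14.80, show the log2 scale themselves. The authors' summary and normalization of the probes are not given in the sources used here. Between arrays, 75th percentiles differed by 0.15, so the values were not rescaled.

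Of the probe sets, 64 were controls, 34945 had 1 gene in the platform annotation, 932 several and 9160 none given here. Symbols were updated through RefSeq (GRCm38.p6), which matched 34741. The brightest probe set of a gene was used (the highest mean signal; 9010 of 18193 genes had several). Tests covered the 13409 genes whose signal exceeded the array's 40th percentile 3 times or more. A gene that no array of a line showed above the highest of 27 bacterial control probe sets counted as not above background, and its fold is a bound.

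Group means of all 9 arrays were fitted with limma 3.58.1 in R 4.3.3 (lmFit, eBayes, 6 residual and 3.63 prior degrees of freedom), and every adjusted p is a two-sided Benjamini-Hochberg value over all tested genes from that fit. The code was tested on simulated data. Arrays have no depth, and their number limits the precision. With 3 mice a side, the smallest p of an exact permutation test is 0.1.

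The genes, the lists and the tests were chosen with earlier results of these data known. Values per tumour are given for genes called in any comparison with values that do not overlap, and for Mki67, Top2a, Cdk1, Plk1, Aurka, Birc5, Foxm1, Cdc20 and Bub3. Prc1 was added after its values were seen. Of other lists, up to 3 called genes in each direction of a comparison may be named, and for some of these the values in other comparisons are given. The like genes are the 5 with the highest correlation. Alternatives changed the probe set, filter, scaling, prior, samples in the fit and covariates (scan file number, hybridization controls, replicate block), or left out each tumour.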

Additional observations from a re-analysis of the deposited data

How the results depend on the processing

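With the scan file number in the model, 2 mitosis genes were called between 4T1 and 67NR tumours in place of 7, and 2661 of all genes in place of 5347. With the hybridization controls as a covariate, 8 mitosis genes (21.6%) and 2151 of all genes (16%) were called there, which turns the order of the shares, and the median difference of the mitosis genes was 0.53 in place of 0.19. Both measures are unevenly spread over the lines, and the cause was not tested. Leaving out 1 tumour at a time gave 3 to 12 mitosis genes for 4T1 against 67NR, 4 to 7 for 66cl4 against 67NR, 3 to 11 for 4T1 against 66cl4 and 6 to 17 in the F-test. The counts of all genes moved too: for 4T1 against 67NR they were 4616 without 67NR replicate 1 and 5018 without 4T1 replicate 1. For 4T1 against 66cl4 they were 4790 without 4T1 replicate 2 and 5329 without 4T1 replicate 1, in place of 5538. The F-test called 7458 of all genes without 4T1 replicate 1, in place of 7590. Matching counts for 66cl4 against 67NR and for the F-test without 4T1 replicate 2 are not given here. The ranges there cannot be set against all genes. The medians ranged over 0.08 to 0.33, -0.12 to 0.16 and 0.04 to 0.32. Over all 37 genes and 3 comparisons, 37 calls were lost and 37 gained under the other alternatives, 43 were lost and 18 gained on leaving out a tumour, and none reversed.

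Whether tumours with the same replicate number share a batch is not known. Over all tested genes, 2 of 9 pairs of tumours with the same number had a correlation of deviations above 0.1. The range was -0.11 to 0.16, and that of pairs with other numbers -0.18 to 0.16. Over the mitosis genes, pairs with the same number had -0.17 to 0.43 and pairs with other numbers -0.33 to 0.46. Replicate 1 had the lowest median of the mitosis genes in each line. With the replicate number as a block, 10, 5 and 8 mitosis genes were called in the 3 comparisons and 12 in the F-test. The medians were 0.19, 0.04 and 0.17. The shares of all genes called with the block are not given here, so these counts cannot be set against them.

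Groups of 3 mice limit every comparison. The intervals given show the sizes of difference these arrays leave possible, and a brightest probe set need not stand for every transcript of its gene.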
